A study of Mus musculus with 4 samples.

Results

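Neutrophil-rich spots of the 4T1 primary tumour (PT) were chosen by measured values, as the 10% of spots in each PT section with the largest share of UMIs on S100a8, S100a9, Retnlg, Ly6g, Csf3r and Mmp8. They were taken among the spots with over 200 genes and 1000 or more UMIs (unique molecular identifiers, each standing for 1 captured probe pair). This gave 392 spots of 3920, made up of 160 of 1604 for mouse A and 232 of 2316 for mouse B, and the 4 sections of the series hold 9339 spots with over 200 genes. The minimum of 1000 UMIs left out 886 of 2490 spots with over 200 genes in mouse A and 56 of 2372 in mouse B. The neutrophil-rich spots were set against the lowest 50% of spots by the same share, which numbered 802 for mouse A and 1158 for mouse B. The sections came from 2 BALB/c mice that received 100000 cells of the mouse mammary carcinoma line 4T1 in the mammary fat pad at 8 weeks of age and were sacrificed after 28 days. Each mouse gave 1 PT section and 1 lung section, all 4 were profiled by probe-based Visium on fixed, paraffin-embedded tissue, and neither an untreated mouse nor a tumour-free mammary gland was among the samples. The tumour is a single transplanted line in an immune-competent host, and each spot covers a patch of tissue with a mixture of cells.

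Neutrophils are short-lived granulocytes that mature in the bone marrow under G-CSF (the product of Csf3) and leave the blood along gradients of chemokines that act on the receptor CXCR2. They carry S100A8 and S100A9 in the cytosol and pack antimicrobial proteins into granules made in successive stages of maturation. The 4T1 tumour is known for the large numbers of neutrophils it raises in blood, tumour and lung. Low oxygen stabilises the hypoxia-inducible factors, which bind a short core sequence and switch on genes of glycolysis, lactate export, pH control and angiogenesis. Car9, the membrane carbonic anhydrase used as a marker of hypoxic tumour tissue, is among them.

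The score was a description and was not tested where it chose the spots. The last spot taken had 0.962% of its UMIs on the 6 genes in mouse A and the first left out had 0.959%. The same values were 3.122% and 3.120% in mouse B. The median share was 1.22% in the neutrophil-rich spots and 0.131% in the lowest 50% of mouse A, and 3.82% and 0.757% in mouse B. The 2 sections therefore had different scales, and the lowest 50% of mouse B held spots at shares that mouse A reached in its top decile only. S100a9 gave 62.7% of the score UMIs of these spots for mouse A and 65.8% for mouse B, and S100a8 gave 28.7% and 25.9%. Ly6g, the surface antigen most used to sort mouse neutrophils, had 1 UMI over the 160 spots taken from mouse A, while the 232 from mouse B held 34 UMIs. The defining marker was therefore under the limit that 3 UMIs set in mouse A, and the label rested there on the other genes.

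**Figure D1:**
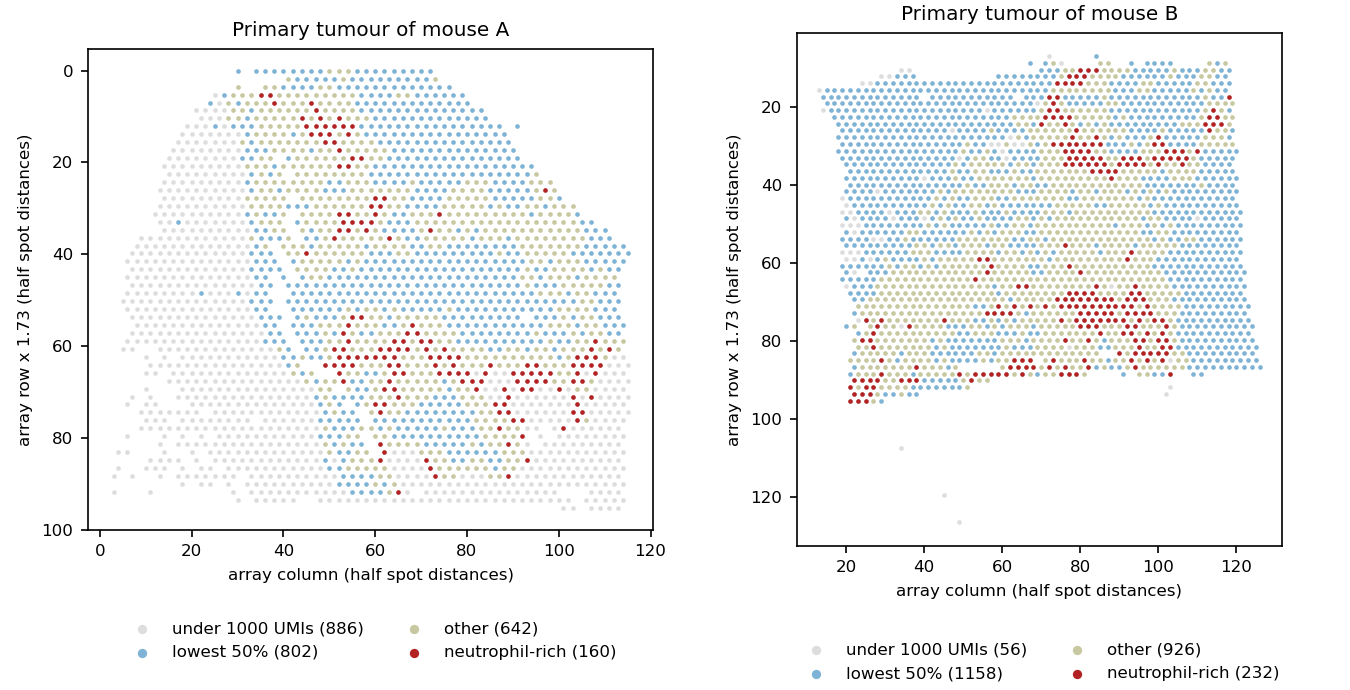
Position of the spots on the slide array in both PT sections, with 1 point a spot (x, array column; y, array row, drawn to scale; both in units of 0.5 spot distances). Neutrophil-rich spots are red, the lowest 50% blue, the spots between them khaki and the spots under 1000 UMIs grey, and the red spots form 27 patches (mouse A) and 36 patches (mouse B).

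The neutrophil-rich spots lay together. Of the neighbours of a neutrophil-rich spot on the hexagonal array, 49.2% (mouse A) and 51.2% (mouse B) were neutrophil-rich themselves, against 0.314% and 0.833% of the neighbours of the lowest 50%. They formed 27 patches in mouse A, the largest of 57 spots, and 36 in mouse B, the largest of 76 spots. The 3 largest patches held 90 of the 160 spots and 127 of the 232 spots, and 15 and 19 patches were single spots. Spots at the edge of the tissue made up 5.0% (mouse A) and 12.1% (mouse B) of the neutrophil-rich spots, against 14.2% and 14.0% of the lowest 50%. In mouse A the patches bordered tissue of low yield, as 11.4% of their neighbours had under 1000 UMIs against 2.68% of the neighbours of the lowest 50%. In mouse B the same shares were 0.373% and 2.31%.

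Depth and probe background moved with the score and bear on each comparison. The PT section of mouse A gave 13551626 UMIs and that of mouse B gave 10890154. The median neutrophil-rich spot of mouse A had 1916 UMIs and 1406 genes against 9763.5 UMIs and 4342 genes in the lowest 50%, while in mouse B it had 2274 UMIs and 1657 genes against 1739.5 and 1449.5. The 1178 olfactory and vomeronasal receptor genes on the probe panel, which tumour tissue is not known to use, took 0.375% of the UMIs of the neutrophil-rich spots and 0.0358% of the lowest 50% in mouse A, and 1.37% and 0.670% in mouse B. Their mean level per gene was 3.23 CPM (UMIs of a gene per 1000000 UMIs) against 0.304 CPM in mouse A and 12.2 CPM against 5.72 CPM in mouse B. A gene near these levels could not be told from that background, and the part of depth and background in the results was not tested as a cause. Results were therefore also computed within quartiles of depth and within quartiles of the receptor share, which did not remove the gap in background (values below). Calls of named genes that were lost there are given with the genes.

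The levels below are CPM over the UMIs outside the 6 score genes, summed over the spots of a class in a section. The log2 fold changes (± SE) come from edgeR's quasi-likelihood test on the 4 sums with the mouse as a block, adjusted by Benjamini-Hochberg over 18297 genes (n = 2 mice). The 4 sums leave few residual degrees of freedom, so the SE and the p-values lean on variance shared across genes. The SE was computed from the fold change and the F statistic, and it is not the spread between the 2 mice. The TMM scaling of that test lowered the log2 ratio of every gene by 0.12 in mouse A and by 0.26 in mouse B against the plain CPM. Of the 18297 genes, 299 (1.63%) were higher and 193 (1.05%) were lower in the neutrophil-rich spots at an adjusted p under 0.05, together 2.69%, and the median log2 fold change of all genes was 0.08. Without the TMM scaling the median was 0.29 and the calls were 434 higher (2.37%) and 90 lower (0.492%), so that 82.8% of the calls were higher in place of 60.8%. Within depth quartiles the calls were 185 higher (1.02%) and 11 lower (0.0607%), and within quartiles of the receptor share 115 higher (0.636%) and 7 lower (0.0387%). Of the 299 higher genes, 174 were also called within depth quartiles and 108 within quartiles of the receptor share, and of the 193 lower genes 5 and 3 were. Of 1051 receptor genes tested 10 were higher and 0 lower, beside 1.63% of all genes higher. Their median log2 fold change was 1.42, at 3.60 in mouse A and 0.89 in mouse B. Within depth quartiles it was 0.88 (1.63 and 0.88) and within quartiles of the receptor share 0.82 (1.01 and 0.95), with 0 calls in both. In summed spots, fewer cells of a type and less RNA per cell cannot be told apart.

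Neutrophil genes outside the score were higher in the spots it chose. Of the 40 such genes listed, 35 were on the panel and all 35 passed the filter on low counts. Of these, 28 were higher and 0 lower, beside 1.63% of all genes higher, with a median log2 fold change of 1.94 (1.42 for mouse A and 2.27 for mouse B on the scale of the test). These genes are read in the same spots as the score, so their count describes the label. The count was 27 within depth quartiles and 25 within quartiles of the receptor share.

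Receptors of mature neutrophils were among the clearest. Cxcr2, the chemokine receptor, was at 94.4 CPM in the neutrophil-rich spots and 18.6 CPM in the lowest 50% of mouse A, and at 426 and 59.0 CPM in mouse B, a log2 fold change of 2.44 ± 0.27 (edgeR adjusted p = 3e-16). Clec4d, a C-type lectin receptor, was at 148 and 28.1 CPM and at 294 and 42.3 CPM (2.42 ± 0.26). Il1r2, the decoy receptor that binds interleukin-1 without signalling, was at 260 and 65.8 CPM and at 674 and 144 CPM (1.91 ± 0.29). The class values of these 3 receptors stood apart in both mice, and all 3 were still higher within depth quartiles and within quartiles of the receptor share.

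Several enzyme and secreted-protein genes of the list were higher too. Wfdc21, a secreted protein of the WAP family, was at 278 and 37.6 CPM in mouse A and at 932 and 144 CPM in mouse B (2.58 ± 0.30). G0s2, an inhibitor of the lipase ATGL, was at 107 and 13.5 CPM and at 297 and 48.0 CPM (2.57 ± 0.26). Hdc, which makes histamine, was at 145 and 23.5 CPM and at 425 and 64.6 CPM (2.48 ± 0.27). Mmp9, the gelatinase of the tertiary granule, was at 161 and 103 CPM in mouse A and at 575 and 143 CPM in mouse B (1.19 ± 0.28, edgeR adjusted p = 0.0021). Its log2 ratio on the scale of the test was 0.53 in mouse A alone and 1.75 in mouse B alone, and its call was lost within depth quartiles and within quartiles of the receptor share.

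Some granule genes that are transcribed in bone marrow precursors were called, with larger ratios in mouse B. Ltf (lactoferrin), Camp (cathelicidin) and Ngp (neutrophilic granule protein) had log2 fold changes of 2.40 ± 0.30, 2.38 ± 0.36 and 2.16 ± 0.31. In mouse A they had 4, 3 and 16 UMIs in all neutrophil-rich spots, at 10.2, 7.66 and 40.8 CPM, and in mouse B 161, 72 and 510 UMIs, at 244, 109 and 774 CPM. Their log2 ratios on the scale of the test were 0.76, 1.41 and 0.97 in mouse A alone and 2.85, 2.64 and 2.78 in mouse B alone. The primary granule genes, which mark still earlier precursors, had 0 calls of 5 tested by edgeR and of 6 by DESeq2, and 0 at an unadjusted p under 0.05. The 6 genes of that list together took 0.0018% of the UMIs of the neutrophil-rich spots for mouse A and 0.0065% for mouse B.

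Of the 35 genes 7 did not pass the threshold, and some of these are used by other cells too. Lcn2, an iron-siderophore binding protein made by neutrophils and by stressed epithelium, was at 1919 and 1426 CPM in mouse A and at 3887 and 2554 CPM in mouse B (0.32 ± 0.48, edgeR adjusted p = 0.84). Slpi, a protease inhibitor of neutrophils and epithelium, was at 1442 and 1443 CPM in mouse A and at 1076 and 1559 CPM in mouse B (-0.46 ± 0.41, 0.71). Padi4, the enzyme that citrullinates histones, and Anxa1 had log2 fold changes of -0.47 ± 0.34 and 0.06 ± 0.34. The lowest 50% of spots, which were poor in the score genes, thus held Lcn2 and Slpi at over 1000 CPM in both mice.

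Of all genes, the 8 largest increases among those with 100 or more UMIs in both sections' neutrophil-rich spots were Cxcl3, Wfdc21, Wfdc17, Ifitm1, Saa3, Srgn, Il1b and Il1r2. Wfdc17 was at 717 and 191 CPM in mouse A and at 2503 and 388 CPM in mouse B (2.11 ± 0.38). Ifitm1, a membrane protein that restricts viral entry, was at 1074 and 310 CPM and at 2923 and 428 CPM (2.10 ± 0.40). Saa3, an acute-phase protein, was at 467 and 137 CPM and at 2362 and 369 CPM (2.05 ± 0.36). Srgn, the core protein of granule proteoglycans, was at 1363 and 346 CPM and at 2183 and 402 CPM (2.02 ± 0.39). Within quartiles of the receptor share Cxcl3, Wfdc21, Saa3 and Il1r2 were still higher, and the calls of Wfdc17, Ifitm1, Srgn and Il1b were lost at log2 fold changes of 1.83, 1.82, 1.62 and 1.75.

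**Figure D2:**
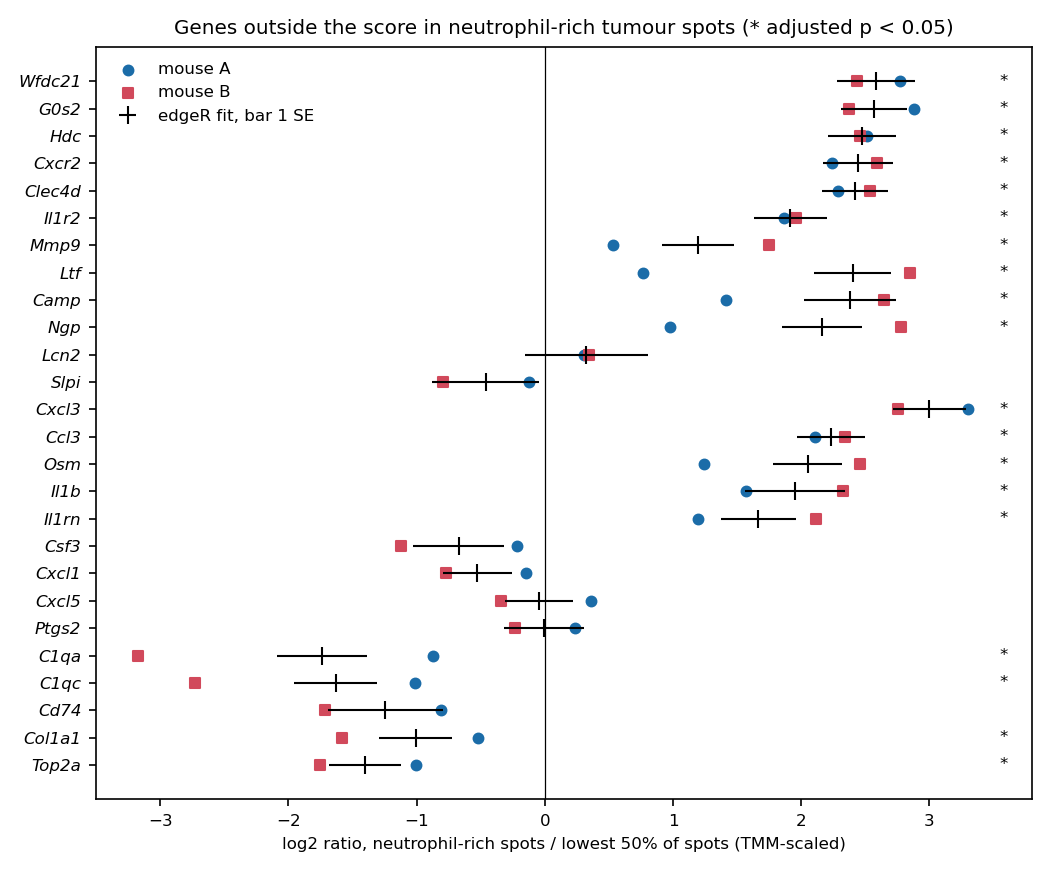
Log2 ratio of neutrophil-rich spots over the lowest 50% of spots (x, on the scale of the edgeR test) for named genes outside the score (y), in mouse A (circles), in mouse B (squares) and as fitted (bar, 1 SE), with a star at an adjusted p under 0.05. Cxcr2 is at 2.24 (mouse A) and 2.59 (mouse B), while Ltf is at 0.76 in mouse A and 2.85 in mouse B.

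Some chemokine and cytokine genes were higher and others were not called. Of 19 recruitment genes tested 6 were higher and 0 lower, beside 1.63% of all genes higher, with a median log2 fold change of 0.62. Cxcl3, a chemokine that acts on CXCR2, had the largest increase among the 8 named above. It was at 265 CPM in the neutrophil-rich spots and 24.8 CPM in the lowest 50% of mouse A and at 583 and 72.1 CPM in mouse B (3.0 ± 0.28, edgeR adjusted p = 3e-22) and it was still called under each alternative that kept the mouse as a block. Il1b, the inflammatory cytokine interleukin-1β, was at 1179 and 364 CPM and at 2385 and 398 CPM (1.95 ± 0.39, edgeR adjusted p = 7.5e-05). Il1rn, the receptor antagonist of interleukin-1, was at 390 and 156 CPM and at 581 and 112 CPM (1.67 ± 0.29). Ccl3 was at 79.1 and 17.0 CPM and at 150 and 24.8 CPM (2.23 ± 0.26), Osm was at 35.7 and 14.3 CPM and at 226 and 34.3 CPM (2.05 ± 0.27), and Ccl4, on 12 and 23 UMIs, had 1.58 ± 0.39. On the scale of the test Osm was at 1.24 in mouse A alone and 2.46 in mouse B alone. Within quartiles of the receptor share the number of higher genes was 3, with Il1b, Il1rn and Ccl4 no longer called.

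The growth factor gene Csf3 and the other CXCR2 ligands that were measured did not pass the test. Csf3 was at 714 CPM in the neutrophil-rich spots and 762 CPM in the lowest 50% of mouse A and at 536 and 971 CPM in mouse B (-0.67 ± 0.36, edgeR adjusted p = 0.40). Cxcl1 was at 79.1 and 81.5 CPM and at 130 and 187 CPM (-0.52 ± 0.27, 0.38). Cxcl5 was at 107 and 77.5 CPM and at 174 and 185 CPM (-0.05 ± 0.27). Ptgs2, the inducible cyclooxygenase, was at 518 and 405 CPM and at 458 and 451 CPM (-0.01 ± 0.31). Csf3 and Cxcl1 were at lower levels in the neutrophil-rich spots of both mice, Cxcl5 and Ptgs2 were higher in mouse A and lower in mouse B on the scale of the test, and none of the 4 passed the threshold. Cxcl2 was not analysed here.

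The promoters of the genes on which the hypoxia and chemokine results turn are shown next, to give the letters that stand before each start. They are the 250 bases before an annotated start (RefSeq, GRCm38.p6), printed 5′ to 3′ on the strand of the gene. Capitals mark the hypoxia response core, searched as ACGTG or GCGTG on both strands, where the 2 strands' matches may overlap. In the last promoter they mark the NF-kB consensus, also searched on both strands. Car9 (chr4:43506776-43507025, plus strand) has 1 core whose first base is 18 bases before the start, Hilpda (chr6:29272376-29272625, plus strand, the downstream one of its 2 starts) has 3, Slc16a3 (chr11:120948817-120949066, plus strand) has 2, and Cxcl3 (chr5:90785851-90786100, plus strand) has 2 overlapping NF-kB matches whose first bases are 73 and 72 bases before the start.
Car9: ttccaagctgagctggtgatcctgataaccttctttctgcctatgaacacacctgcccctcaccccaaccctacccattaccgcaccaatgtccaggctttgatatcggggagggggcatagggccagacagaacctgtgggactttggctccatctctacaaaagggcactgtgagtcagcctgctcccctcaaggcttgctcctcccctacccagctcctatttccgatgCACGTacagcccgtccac
Hilpda: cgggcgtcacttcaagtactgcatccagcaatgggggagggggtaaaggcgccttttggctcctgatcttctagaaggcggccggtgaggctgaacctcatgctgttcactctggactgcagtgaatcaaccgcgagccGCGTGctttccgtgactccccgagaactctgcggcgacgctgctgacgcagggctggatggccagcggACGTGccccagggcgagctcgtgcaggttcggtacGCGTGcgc
Slc16a3: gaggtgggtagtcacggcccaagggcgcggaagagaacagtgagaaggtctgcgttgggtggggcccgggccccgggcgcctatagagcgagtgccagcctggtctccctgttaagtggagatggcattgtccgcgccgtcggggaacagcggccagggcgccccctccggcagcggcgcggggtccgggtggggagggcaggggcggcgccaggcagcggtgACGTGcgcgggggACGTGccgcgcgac
Cxcl3: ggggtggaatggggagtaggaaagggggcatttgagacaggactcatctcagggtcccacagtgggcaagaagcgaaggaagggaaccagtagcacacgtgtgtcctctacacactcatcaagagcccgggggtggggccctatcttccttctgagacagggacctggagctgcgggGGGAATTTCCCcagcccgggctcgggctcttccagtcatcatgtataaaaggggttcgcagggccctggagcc
The core is short, and 38.6% of 32851 promoters of this length hold it at least once. Of the 26 genes of the hypoxia list with such a promoter 23 (88.5%) held it before at least 1 start, beside 41.5% of 27025 genes. The NF-kB consensus was in 7.25% of the promoters, and the same window of Il1b held 0 matches to it. Car9, which was not called, and Hilpda and Slc16a3, which were higher, all held the core. The upstream start of Hilpda held 0 cores, and the window of Cxcl3, where they are not marked, held 2.

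The hypoxia list was split in the neutrophil-rich spots. Of 35 genes listed, 29 were measured and tested, 4 were higher and 0 lower, beside 1.63% of all genes higher. Their median log2 fold change was -0.19 against 0.08 over all genes, at 0.13 in mouse A and -0.33 in mouse B on the scale of the test. The list took 1.27% of the UMIs of the neutrophil-rich spots and 1.06% of the lowest 50% in mouse A, and 1.19% and 1.26% in mouse B. The list's median lay 0.26 below that of all genes, but it lay above it by 0.28 with each spot thinned to 1000 UMIs and by 0.026 with a minimum of 2000 UMIs, so the list had no fixed direction.

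Car9 did not pass the threshold. It was at 827 CPM in the neutrophil-rich spots and 807 CPM in the lowest 50% of mouse A, and at 683 and 927 CPM in mouse B. The log2 fold change was -0.40 ± 0.36 (edgeR adjusted p = 0.71), and the call was the same under each alternative run. Slc2a1, the glucose transporter GLUT1, was at 1263 and 813 CPM in mouse A and at 1283 and 1263 CPM in mouse B (0.13 ± 0.39). Vegfa was at 191 and 120 CPM and at 159 and 127 CPM (0.30 ± 0.26). Of the glycolytic enzymes, Pgk1 was at 574 and 547 CPM in mouse A and at 397 and 587 CPM in mouse B (-0.44 ± 0.33). Hk2 was at 74.0 and 78.8 CPM and at 68.3 and 91.3 CPM (-0.47 ± 0.26), and neither passed the threshold.

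The 4 higher genes were Hilpda, Pfkfb3, Slc16a3 and Pfkfb4. Hilpda, which inhibits the lipase ATGL and builds lipid droplets, was at 306 CPM against 65.3 CPM in mouse A and 369 against 119 CPM in mouse B (1.72 ± 0.27, edgeR adjusted p = 5e-08). Pfkfb3, which makes the activator of phosphofructokinase, was at 79.1 and 32.6 CPM and at 118 and 25.0 CPM (1.61 ± 0.26, 1.6e-07). Slc16a3, the lactate exporter MCT4, was at 138 and 68.4 CPM and at 296 and 60.8 CPM (1.51 ± 0.26, 1.3e-06), and Pfkfb4 was at 25.5 and 16.5 CPM and at 81.9 and 19.96 CPM (1.34 ± 0.31, 0.0012). For Pfkfb4 the log2 ratio on the scale of the test was 0.57 in mouse A alone, on 10 UMIs, and 1.78 in mouse B alone, and for Slc16a3 it was 0.90 and 2.02. Within depth quartiles Hilpda, Pfkfb3 and Slc16a3 were still higher, and within quartiles of the receptor share Pfkfb3 and Slc16a3 were, while Hilpda had a log2 fold change of 1.17 and was not called. Pfkfb4 was called in neither. Neutrophils rely on glycolysis and use some of these genes themselves, and the part of the cells of a spot that carries each transcript was not measured.

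**Figure D3:**
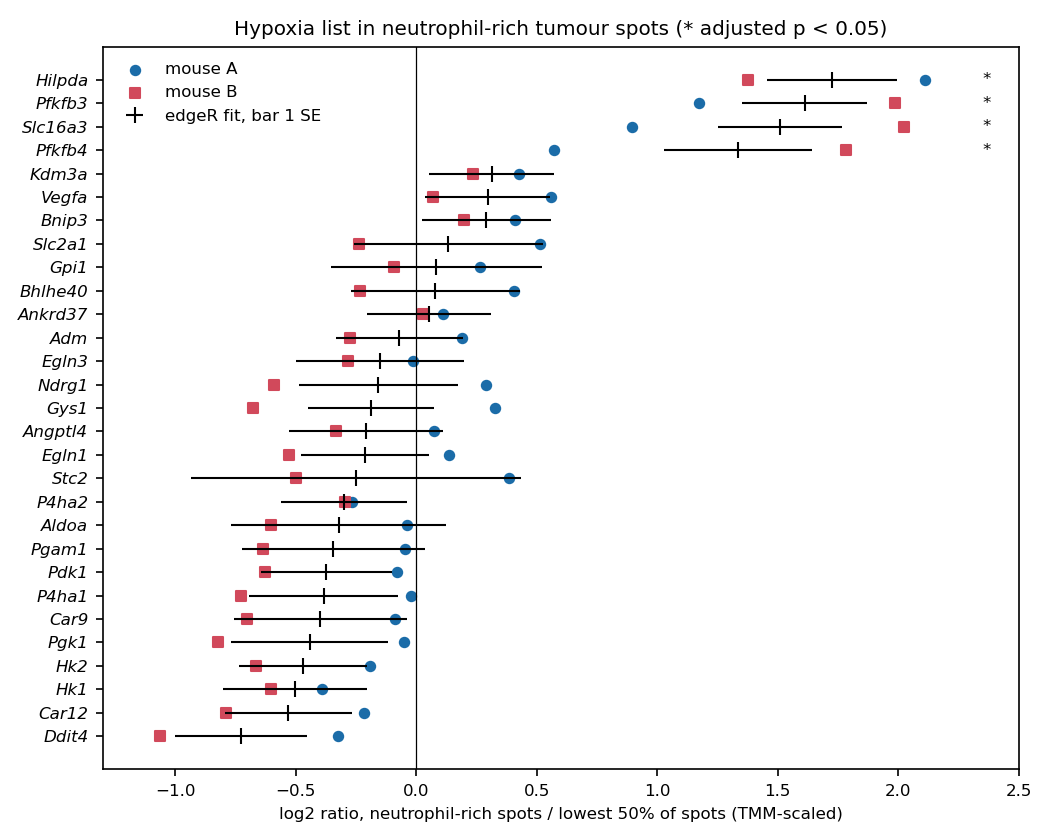
Log2 ratio of neutrophil-rich spots over the lowest 50% of spots (x, on the scale of the edgeR test) for the 29 genes of the hypoxia list (y), in mouse A (circles), in mouse B (squares) and as fitted (bar, 1 SE), with a star at an adjusted p under 0.05. Hilpda, Pfkfb3, Slc16a3 and Pfkfb4 have the 4 highest fitted values, Pfkfb4 in mouse A (0.57) lies close to Vegfa (0.56), and Car9 is at -0.09 (mouse A) and -0.70 (mouse B).

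The levels across deciles of the score gave the same picture as a description. Hilpda went from 45.0 CPM in the lowest decile to 302 CPM in the highest in mouse A and from 91.3 to 369 CPM in mouse B, and Slc16a3 from 50.8 to 136 CPM and from 34.1 to 296 CPM. Car9 climbed in mouse A from 750 CPM in the lowest decile to 985 CPM in decile 9 and was at 827 CPM in the highest, while in mouse B it was at 1004 CPM in the lowest decile and 683 CPM in the highest. Slc2a1 went from 673 to 1272 CPM in mouse A and lay between 1137 and 1291 CPM in mouse B. C1qa, a complement gene of macrophages, went the other way, from 1013 to 531 CPM and from 261 to 24.3 CPM. The whole hypoxia list took 0.976% of the UMIs in the lowest decile of mouse A, 1.34% in decile 9 and 1.27% in the highest. For mouse B the list took 1.28% in the lowest decile and 1.19% in the highest.

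Over single spots, Spearman's correlation of the score with the share of UMIs on the hypoxia list was 0.40 in mouse A (1604 spots) and 0.20 in mouse B (2316 spots). Within quartiles of depth it lay between 0.31 and 0.48 in mouse A and between -0.07 and 0.44 in mouse B. Leaving Hilpda, Pfkfb3, Pfkfb4 and Slc16a3 out of the list gave correlations of 0.36 for mouse A and 0.14 for mouse B. For that shorter list the depth quartiles spanned 0.28 to 0.45 (mouse A) and -0.13 to 0.39 (mouse B). With Car9 alone the correlation was 0.09 and -0.04, and 0.19 and 0.08 with each spot thinned to 1000 UMIs. The score and the list are shares of the same spots, the score had a correlation of -0.47 with the total UMIs in mouse A and -0.01 in mouse B, and these values are descriptions. In mouse A 34 of the 160 neutrophil-rich spots (21.3%) and in mouse B 29 of the 232 (12.5%) were also among the 10% of spots highest in the hypoxia list, and with each spot thinned to 1000 UMIs the numbers were 23 and 30. As the 10% of spots are equal in number on both sides, these are also the shares of the hypoxic spots that were neutrophil-rich.

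**Figure D4:**
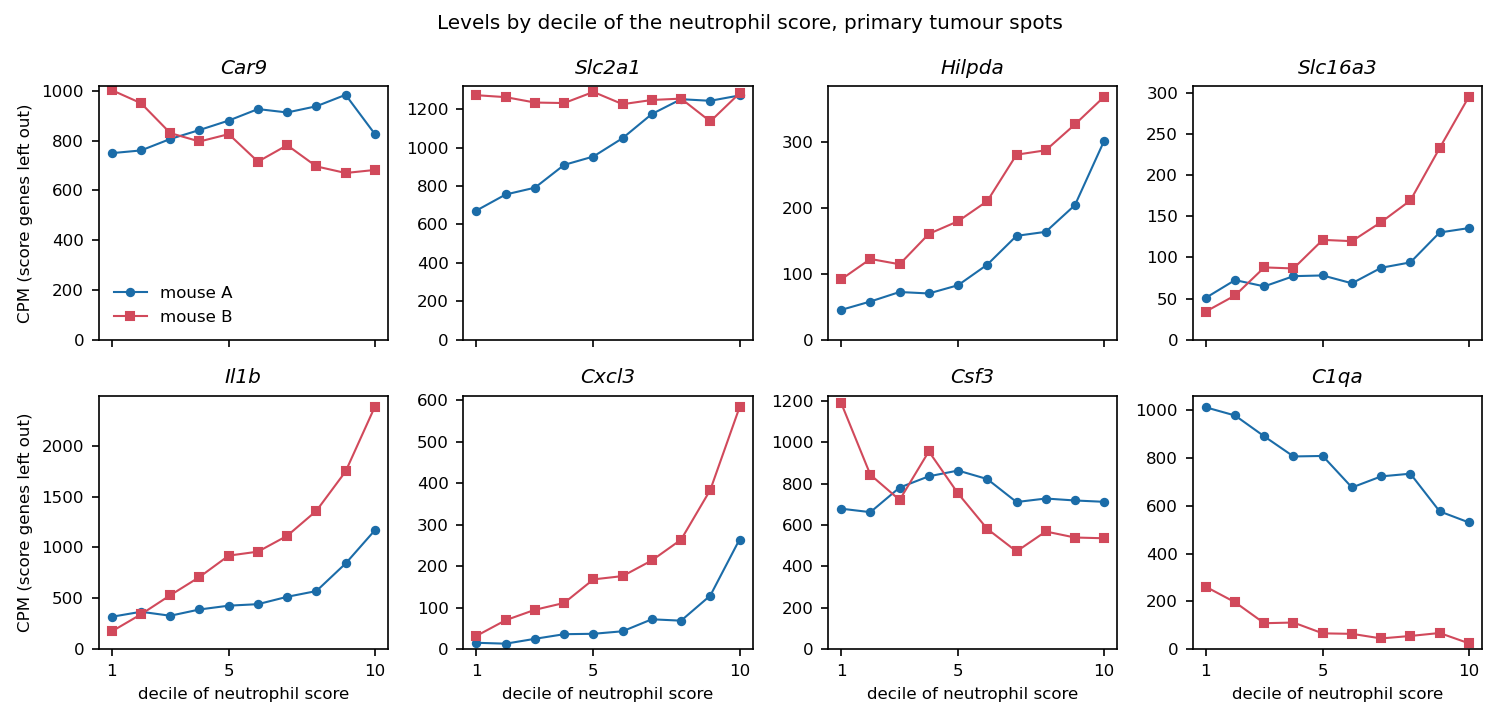
Level in CPM (y, from 0) by decile of the neutrophil score (x, lowest to highest) in the PT of mouse A (circles) and mouse B (squares) for 8 genes. Hilpda, Slc16a3, Il1b and Cxcl3 are highest in the last decile in both mice, Car9 has its maximum of 985 CPM in decile 9 of mouse A and of 1004 CPM in the lowest decile of mouse B, and C1qa falls off in both.

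Macrophage complement genes were lower in the neutrophil-rich spots. Of 19 macrophage genes tested 5 were lower, beside 1.05% of all genes, and 1 was higher, with a median log2 fold change of -0.53. C1qa was at 536 CPM against 902 CPM in mouse A and at 24.3 against 189 CPM in mouse B (-1.74 ± 0.35, edgeR adjusted p = 0.00011). C1qc, its partner in the C1q complex, was at 327 and 607 CPM and at 19.7 and 113 CPM (-1.63 ± 0.33). The other lower genes, named here after their values were seen, were C1qb (-1.26 ± 0.30), Mrc1 (-1.11 ± 0.29), which codes for the mannose receptor, and Apoe (-0.99 ± 0.31), and the higher one was Cd14 (1.40 ± 0.27, at 0.65 in mouse A alone, and not called within quartiles of the receptor share), which monocytes and neutrophils also use. Within depth quartiles and within quartiles of the receptor share edgeR called 0 of the 19 lower, with C1qa at -1.27 and -1.31 and with 4 and 3 genes lower at an unadjusted p under 0.05. On the scale of the test C1qa was at -0.87 in mouse A alone and -3.17 in mouse B alone.

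Genes of lymphocytes, antigen presentation and stroma showed few calls. Of 18 T and NK cell genes 1 was lower, beside 1.05% of all genes, and 0 were higher. This was Prf1 (perforin), at 40.8 CPM against 69.0 CPM in mouse A and at 30.3 against 81.1 CPM in mouse B (-1.32 ± 0.30, edgeR adjusted p = 0.00098). Cd74, the invariant chain of MHC class II, was at 1995 and 3201 CPM and at 212 and 584 CPM, and did not pass the threshold (-1.24 ± 0.45, 0.12). None of the 12 antigen presentation genes passed it by edgeR, with a median log2 fold change of -0.59, while 6 were lower at an unadjusted p under 0.05 and DESeq2 called 1. Of 20 fibroblast genes, Col1a1 (235 and 310 CPM, 56.1 and 142 CPM, -1.01 ± 0.29) and Col1a2 (115 and 157 CPM, 33.4 and 73.4 CPM, -0.94 ± 0.28) were lower (beside 1.05% of all genes) and Pi16 was higher (1.52 ± 0.31), the last on 6 UMIs in mouse A. In mouse A alone Col1a1 was at -0.52 and Pi16 at 0.41 on the scale of the test. The calls of Prf1, Col1a1, Col1a2 and Pi16 were lost within depth quartiles and within quartiles of the receptor share. The 10 dendritic cell, 9 B and plasma cell, 13 interferon and 15 endothelial genes tested gave 0 calls by edgeR and by DESeq2, with 1, 0, 3 and 4 genes at an unadjusted p under 0.05. The 7 muscle, 8 adipocyte and 6 hair follicle genes gave 0 calls by both tools and 0 at an unadjusted p under 0.05 by edgeR.

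Some genes of dividing cells were lower. Of 17 proliferation genes 4 were lower, beside 1.05% of all genes, and 0 higher, with a median log2 fold change of -0.65. Top2a, the topoisomerase of dividing cells, was at 81.7 CPM against 153 CPM in mouse A and at 45.5 against 130 CPM in mouse B (-1.40 ± 0.28, edgeR adjusted p = 0.0001). Mki67 was at 143 and 198 CPM and at 69.8 and 172 CPM (-1.07 ± 0.28), and Ccna2 and Mcm5, named after their values were seen, were the others. All 4 had negative log2 fold changes within depth quartiles, of which Top2a was at -0.76, but 0 of the 17 passed the threshold there or within quartiles of the receptor share by edgeR, with 5 and 3 lower at an unadjusted p under 0.05, and DESeq2 called 0 of them over all spots. In mouse A alone Mki67 was at -0.58 on the scale of the test. Ddit3, the stress transcription factor CHOP, was the 1 called gene of 15 in the integrated stress response list, beside 1.63% of all genes higher, at 148 CPM against 68.5 CPM and at 350 against 141 CPM (1.02 ± 0.26), and it lost its call in both kinds of quartile.

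Of 9 blood genes 2 were higher, beside 1.63% of all genes, and of 14 epidermis genes 2 were lower, beside 1.05% of all genes. Within both kinds of quartile edgeR called 0 blood genes, with 4 at an unadjusted p under 0.05 in each, and 4 epidermis genes lower. Over all spots DESeq2 called 2 blood genes and 0 epidermis genes. The median log2 ratio of the epidermis list had opposite signs by mouse. Within depth quartiles mouse A had -2.48 against 0.57 for mouse B, and within quartiles of the receptor share -2.18 against 0.55. Hbb-bs was at 102 CPM against 68.8 CPM in mouse A and at 1689 against 363 CPM in mouse B (1.33 ± 0.35, edgeR adjusted p = 0.0088), and its log2 ratio on the scale of the test was 0.46 in mouse A alone and 1.96 in mouse B alone. Hba-a2 was at 56.1 and 29.7 CPM and at 856 and 190 CPM (1.51 ± 0.31, at 0.82 in mouse A alone). Both lost the call in both kinds of quartile. The blood list of 9 measured genes took 0.0424% of the UMIs of the neutrophil-rich spots for mouse A and 0.271% for mouse B, against 0.0363% and 0.0729% in the lowest 50%. Neutrophils of the blood would be counted with those of the tissue, and the part of blood in the neutrophil genes was not tested. Krt14, the basal keratin of skin, was lower by 2.01 ± 0.54 (edgeR adjusted p = 0.011) through mouse A, where it was at 5.10 CPM against 56.5 CPM. Without mouse A it was higher by 0.62, at 6.07 against 3.65 CPM, on 4 UMIs. Lgals7, a galectin of stratified epithelium, was at 40.8 and 192 CPM and at 33.4 and 56.9 CPM (-1.69 ± 0.30, at -2.32 in mouse A alone and lower in mouse B too), and lost its call without the 10% of spots highest in skin genes.

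Among the 8 largest decreases were Pdk2, Gprc5b, Grap, Col12a1, C1qa, Ccl12 and Lgals7, with log2 fold changes between -2.28 and -1.69. Pdk2 and Gprc5b had 0 and 3 UMIs in the neutrophil-rich spots of mouse A and held 4 and 2 UMIs in those of mouse B, so their values rest on few counts. Their levels of 6.07 CPM and 3.03 CPM in mouse B lay under the mean of 12.2 CPM of the receptor genes there. Grap, an adaptor protein of lymphocytes, was at 17.9 CPM against 38.5 CPM and at 9.10 against 39.9 CPM (-1.84 ± 0.39). Ccl12, a chemokine that draws monocytes, was at 38.3 and 119 CPM and at 7.59 and 19.2 CPM (-1.71 ± 0.35), and in the neutrophil-rich spots of mouse B both lay under that mean too. Of the 8, only Lgals7 was still called within depth quartiles and within quartiles of the receptor share.

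The spots around the patches were set against spots farther away. Spots that touched a neutrophil-rich spot without being one (243 for mouse A and 364 for mouse B) were compared with spots 3 or more steps away. Of 18528 genes outside the score 212 (1.14%) were called, with 115 (0.621%) higher and 97 (0.524%) lower next to the patches. S100a9 was at 2853 CPM of all UMIs next to the patches and 931 CPM far from them in mouse A, and at 13790 and 4204 CPM in mouse B . The score genes placed both classes, so these values are a description with no test, and adjoining spots share tissue. The touching spots of mouse A had a median of 4656 UMIs against 7461 in the far ones, and those of mouse B had 2091 against 1650.

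Other genes graded with distance as the patches did. Of 35 neutrophil genes outside the score 20 were higher next to the patches and 0 lower, beside 0.621% of all genes higher, and 13 were called within depth quartiles and 9 by DESeq2. Cxcl3 was at 92.9 CPM against 25.9 CPM in mouse A and at 295 against 80.5 CPM in mouse B (1.76 ± 0.18), and Hdc (1.46 ± 0.18), Wfdc21 (1.41 ± 0.17) and Mxd1 (1.27 ± 0.17), a partner of MAX that opposes MYC, followed it. Il1b was at 611 and 388 CPM and at 1520 and 423 CPM (1.16 ± 0.19), with a log2 ratio on the scale of the test of 0.58 in mouse A alone and 1.72 in mouse B alone. Of the hypoxia list Hilpda (176 and 75.9 CPM, 277 and 126 CPM, 1.07 ± 0.17), Pfkfb3 (0.89 ± 0.19) and Slc16a3 (0.87 ± 0.17) were higher. All 3 lost the call within depth quartiles, as did Il1b, whose log2 fold change there was 1.01. Slc16a3 was at 0.29 in mouse A alone and 1.41 in mouse B alone. Car9 was not called (0.02 ± 0.18, edgeR adjusted p = 0.99). C1qa was lower, at 597 and 918 CPM and at 51.7 and 194 CPM (-1.21 ± 0.19), as were Cd74 (-0.99 ± 0.20) and Col3a1 (-1.22 ± 0.20), and of these only Col3a1 kept its call within depth quartiles, while thinned it was at -0.33 and not called. Ccl8, a chemokine of macrophages, was lower by 1.22 ± 0.20 on the log2 scale. Fntb was lower by 1.36 ± 0.32 on 6.13 CPM in mouse B and lost its call within depth quartiles (-0.37). Lgals7 was lower by 1.41 ± 0.20, at -2.18 in mouse A alone and -0.41 in mouse B alone. DESeq2 called none of Ccl8, Col3a1 and Lgals7, at log2 fold changes of -1.15, -1.17 and -1.28. C1qa and Cd74 were at -0.69 and -0.62 in mouse A alone and at -2.02 and -1.41 in mouse B alone. Krt14 was lower by 3.41 ± 0.41 through mouse A and higher by 0.21 without it, and Hbb-bs was higher by 0.86 ± 0.19 through mouse B and at -0.02 without it, and lost its call within depth quartiles. The granule genes Ngp (0.63 ± 0.19, edgeR adjusted p = 0.06), Ltf (0.78 ± 0.24) and Camp (0.34 ± 0.36) were not called.

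Some genes had their highest level outside the patches. By steps from the nearest neutrophil-rich spot, Car9 was at 827 CPM within the patches of mouse A, 989 CPM at 1 step, 912 CPM at 2 steps, 740 CPM at 5 steps and 828 CPM at 6 or more. In mouse B it was at 683, 835 and 960 CPM at 0, 1 and 2 steps, at 813 CPM at 5 steps and at 874 CPM at 6 or more. Csf3 was highest at 2 steps in mouse A (913 CPM against 714 CPM within the patches) and at 4 steps in mouse B (1388 against 536 CPM). Slc2a1 was highest within the patches in mouse A (1263 CPM) and at 2 steps in mouse B (1530 against 1283 CPM). These profiles have 1 section a mouse and were not tested. Cxcr2, in contrast, went from 94.4 to 44.1 and 28.3 CPM over 0, 1 and 2 steps in mouse A and from 426 to 203 and 125 CPM in mouse B.

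The neutrophil-rich spots were then divided by their own hypoxia list, into the 50% with the higher share of UMIs on it (called hypoxic here) and the other 50% in each section. Outside the list and the score 5 of 6004 genes (0.0833%) were called, with 1 (0.0167%) higher and 4 (0.0666%) lower in the hypoxic 50%. Mt1, a metallothionein, was at 2007 CPM in the hypoxic and 1669 CPM in the other spots of mouse A and at 2718 and 2058 CPM in mouse B (0.36 ± 0.07, edgeR adjusted p = 0.0012). Lcn2 was at 1733 and 2087 CPM and at 3449 and 4276 CPM (-0.28 ± 0.06, 0.0042). Within depth quartiles Mt1 was still called and Lcn2 was not (-0.21), while with each spot thinned to 1000 UMIs (Mt1 at 0.15) and by DESeq2 neither was. Ngp was lower through mouse B, at 567 and 957 CPM, while in mouse A it was at 53.7 and 29.2 CPM (-0.66 ± 0.15), and without mouse B it was higher by 0.82. Within depth quartiles Ngp was at -1.32 and called, and thinned (-0.34) and by DESeq2 (-0.10) it was not. Ltf was not called (-0.92 ± 0.25, edgeR adjusted p = 0.11), at 0.13 in mouse A alone, on 2 UMIs in each class, and -0.95 in mouse B alone. It was called within depth quartiles at -1.75, and thinned it was at -0.22. Of 31 neutrophil genes outside the score 2 (Lcn2 and Ngp) were lower, beside 0.0666% of all genes. Within depth quartiles 3 of 34 were lower, namely Ngp, Ltf and Lrg1 (-0.75). Gzmc and Ubtf, named after their values were seen, were the other lower genes of the main test. The score gene S100a9, given as a description, was at 8266 and 7902 CPM of all UMIs in mouse A and at 28624 and 28917 CPM in mouse B.

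The same rule was applied to the lung sections of the same mice, which gave 447 neutrophil-rich lung spots. Neutrophil genes were abundant throughout the lung of mouse A, where even the lowest 50% of spots had a median score of 6.49%, above the 1.22% of the neutrophil-rich PT spots, and the same value was 0.968% in mouse B. Ly6g was at 425 CPM of all UMIs in the neutrophil-rich lung spots of mouse A and 220 CPM in those of mouse B, against 2.52 and 49.3 CPM in the PT. Cxcr2 was at 1541 and 1432 CPM in the lung spots, against 94.4 and 426 CPM in the PT spots. The test of the difference asked whether the gap between neutrophil-rich and lowest spots differed between PT and lung, and it called 72 of 17926 genes (0.402%), of which 63 (0.351%) had a more positive gap in the PT and 9 (0.0502%) a more negative one. Within depth quartiles 22 of the 63 and 0 of the 9 were also called. Metastatic foci were not marked out in the lung sections here, so the values of both classes are given.

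Cxcl3 had the largest difference of the named genes. In the lung it had 0 UMIs in the neutrophil-rich spots of mouse A and 0.525 CPM in those of mouse B, against 2.03 and 2.73 CPM in the lowest 50%, while the PT spots held 265 and 583 CPM (difference of the log2 fold changes 5.63 ± 0.85, edgeR adjusted p = 6.2e-07). Both values of the neutrophil-rich lung spots lay under the limit that 3 UMIs set, so the size of this difference rests on few counts. Il1b was at 1042 CPM in the neutrophil-rich lung spots and 699 CPM in the lowest 50% of mouse A and at 485 and 126 CPM in mouse B, and its gap was not called different (0.52 ± 0.55, 0.93). Csf3 was at 0.923 and 13.4 CPM in the lung of mouse A and at 16.8 and 227 CPM in mouse B (2.86 ± 0.59), and Ptgs2 at 8.31 and 26.8 CPM and at 14.2 and 97.3 CPM (2.17 ± 0.50). Within depth quartiles Cxcl3 and Ptgs2 were still called and Csf3 was not, and with each spot thinned to 1000 UMIs none of the 3 was. None of the 35 neutrophil genes outside the score had a different gap by edgeR or by DESeq2, and 6 had an unadjusted p under 0.05 by edgeR.

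Of the 29 hypoxia genes 2 (Car9 and Car12) had a more positive gap in the PT, beside 0.351% of all genes, and 0 were called with each spot thinned to 1000 UMIs or by DESeq2. Car9 was at 2.77 CPM in the neutrophil-rich and 2.85 CPM in the lowest spots of the lung of mouse A and at 7.88 and 145 CPM in mouse B, and its gap differed by 2.90 ± 0.65 (edgeR adjusted p = 0.0082). This came from the lung of mouse B, and without that mouse the difference was -0.30. Car12 differed by 1.97 ± 0.53 (0.045) and lost its call within depth quartiles, where Car9 kept it. Slc16a3 was at 320 and 174 CPM in the lung of mouse A and at 194 and 38.3 CPM in mouse B, and Pfkfb4 at 265 and 171 CPM and at 249 and 52.6 CPM. Pfkfb3 was at 67.4 and 46.2 CPM and at 66.2 and 19.2 CPM. These 3 genes of the hypoxia list had a higher level in the neutrophil-rich spots of both lungs too, and their gaps were not called different (-0.30 ± 0.44, -0.33 ± 0.46 and 0.24 ± 0.43). The part of oxygen and of cell makeup in these levels was not tested. Hilpda was at 58.2 and 59.4 CPM in the lung of mouse A and at 56.2 and 23.7 CPM in mouse B, and its difference was not called (0.93 ± 0.43, edgeR adjusted p = 0.45).

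**Figure D5:**
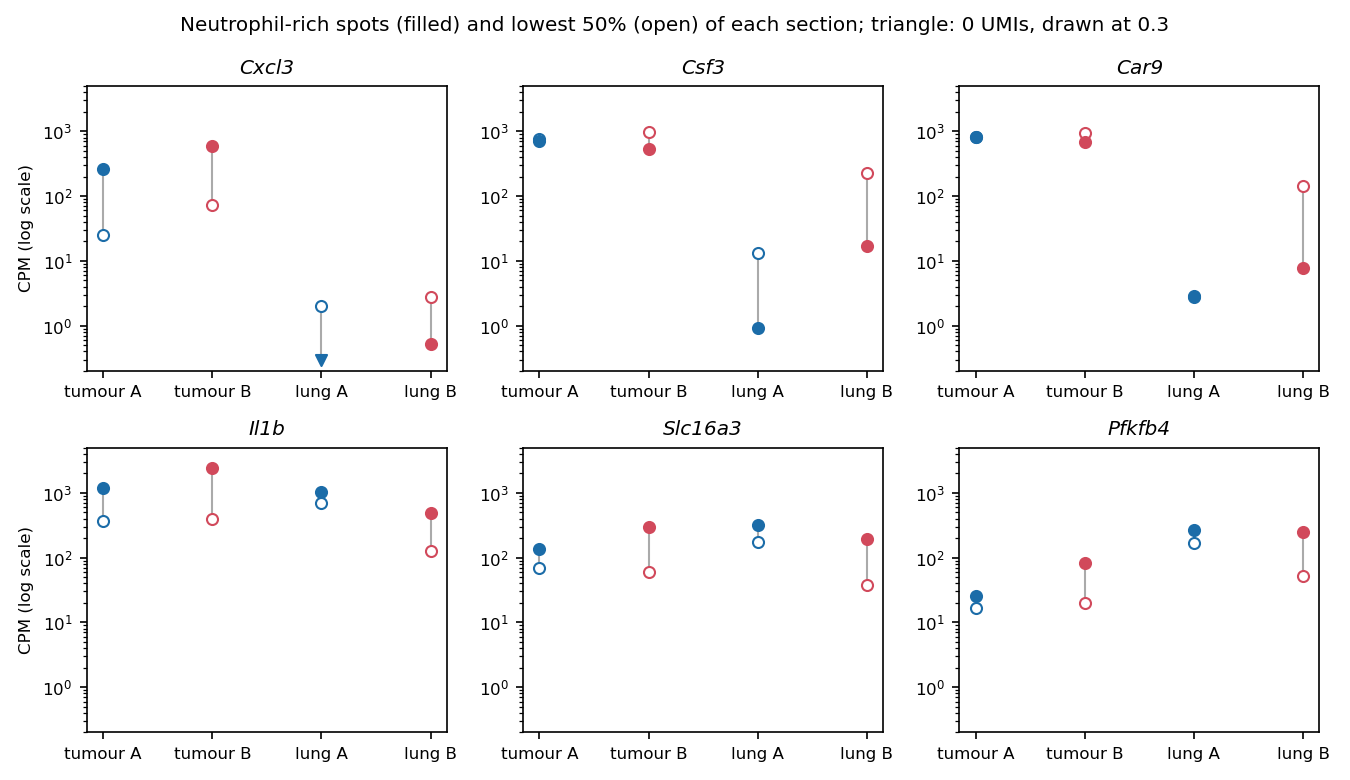
Level in CPM (y, log scale) of 6 genes in the neutrophil-rich spots (filled) and the lowest 50% of spots (open) of each section (x), joined by a line, with a triangle at 0.3 for 0 UMIs. Cxcl3 is at 265 and 583 CPM in the neutrophil-rich PT spots and under 1 CPM in those of the lungs, while Slc16a3 and Pfkfb4 are higher in the neutrophil-rich spots of all 4 sections.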

How the data were processed

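One PT and one lung section of each of 2 mice were profiled by Visium. Per the labels (the submitters' processing notes) the authors used Space Ranger 2.0.0 with mm10, and they deposited raw UMI counts per gene for the spots over tissue, with spot positions, without normalization. For a duplicated symbol, the row with most UMIs kept the symbol, and the other rows stayed in the counts under the symbol with their gene identifier added. Spots with over 200 genes and 1000 or more UMIs were scored, the UMIs of the top 10% and the lowest 50% were summed per section, and the sums were tested in R 4.3.3 with edgeR 4.0.16 (TMM, filterByExpr, quasi-likelihood test, Benjamini-Hochberg, threshold 0.05), with the 6 score genes left out of the table except in the comparisons of rings and of hypoxic members. DESeq2 1.42.0 was an alternative. Both sums of a mouse come from 1 section, so the mouse was the block; deviations of same-mouse sums had correlations of 0.654, 0.871 and 0.624 in the 3 comparisons within the PT. Spots were not treated as replicates, no doublet caller was run and no cell-type makeup was estimated. The test was also run on simulated data, with an outcome that is not reported here. With 2 mice an exact permutation test cannot reach p under 0.05.

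The score genes and Car9, any gene of the hypoxia, neutrophil and recruitment lists, up to 4 tested genes of each other list with the largest change, and of all genes the 8 largest increases and decreases (4 in the other comparisons) were named, among called genes with the same direction in both mice and 100 or more UMIs in the class where they were higher. A few genes that this rule names are not reported here. The members and lists were chosen with earlier results of these data known, and the quartiles of depth in 3 comparisons and of the receptor share were added after seeing the data. The analyses outside R used Python 3.11.15, numpy 2.4.6, scipy 1.17.1, pandas 2.3.3 and matplotlib 3.10.9.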

Additional observations from a re-analysis of the deposited data

Results flagged for a closer look

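These genes were singled out because the gap between neutrophil-rich and lowest spots differed between PT and lung (edgeR interaction, adjusted p under 0.05, n = 2 mice). The difference is the log2 fold change in the PT less that in the lung. The lungs' lowest spots hold several kinds of tissue, and the part of tissue makeup in these differences was not tested. Levels in those lowest lung spots are not given in this section. None of these genes was called without the mouse as a block. Within depth quartiles Cntnap1, Prrg4, Csf3, Car12, Hmga2, Phgdh and Timp1 lost their calls, as did Gzmf, Grap, Plbd1 and F13a1. With each spot thinned to 1000 UMIs Mettl7b alone of the genes below was still called. Rsad2 was not called there, and its difference of the log2 fold changes was 0.0039. DESeq2 called Cxcl3, Mettl7b, Csf3, Ptgs2, Hmga2, Mmp13 and Gzmf, did not call Car9, Plbd1 and F13a1, and gave no adjusted p for the others.

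Among them were the inflammatory genes Cxcl3, Csf3 and Ptgs2. Cxcl3 differed by 5.63, the largest value of the flagged genes, Csf3 by 2.86 and Ptgs2 by 2.17. Each of these 3 was under 20 CPM in the neutrophil-rich spots of both lungs. The interferon genes Rsad2 and Ifi44 differed by 2.19 and 1.92, with Rsad2 at 115 and 39.4 CPM in the neutrophil-rich spots of the PT and 7.39 and 8.40 CPM in those of the lungs.

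Also flagged were genes of metabolism, matrix and tumour cells. Car9 differed by 2.90 and Car12 by 1.97. The matrix genes Mmp13, a collagenase, and Timp1, a protease inhibitor, differed by 2.32 and 1.89. Hmga2, a chromatin protein of embryonic and tumour cells, was at 278 and 326 CPM in the neutrophil-rich spots of the PT and 1.85 and 17.3 CPM in those of the lungs and differed by 2.5. Chac1 and Phgdh, of the stress response and serine synthesis, differed by 2.17 and 2.11. Mettl7b differed by 3.67, Cntnap1 by 5.19 and Prrg4 by 3.53, each with 0 UMIs in the neutrophil-rich spots of the lung of mouse A.

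The lower genes were fewer. Gzmf, a granzyme, had a difference of -2.67, with 288 and 252 CPM in the neutrophil-rich spots and 455 and 664 CPM in the lowest spots of the PT. Grap had -2.03, Plbd1 -1.95 and F13a1 -1.94. Plbd1 was at 239 and 137 CPM in the neutrophil-rich spots of the lungs and at 23.0 and 22.8 CPM in those of the PT.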

How the results depend on the processing

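Without the replicate block edgeR called 0 genes in each direction of all 4 comparisons, with 571, 84, 45 and 305 genes at an unadjusted p under 0.05 for neutrophil-rich against lowest spots, rings, hypoxic members and PT less lung. A count test with 1 mouse left has no residual degrees of freedom and was not run. For neutrophil-rich spots (299 higher, 193 lower), DESeq2 called 112 and 19, depth quartiles 185 and 11, and quartiles of the receptor share 115 and 7. The lower calls were also 367 against all other spots, 45 with a minimum of 2000 UMIs, 90 without TMM, 363 without the filter, 993 without a minimum of UMIs, 115 with score and sums from separate 50% shares of the UMIs, 93 without S100a8 and S100a9 in the score, 13 thinned, 14 with the top 20% and 389 without skin spots. For rings, with the score genes counted (120 and 97), DESeq2 called 34 and 3 and depth quartiles gave 44 and 24. The lower ring genes were 50 without the filter and 16 thinned. For the hypoxic members, with the list's own genes counted (7 and 4), DESeq2 called 0 and 0 (10 at an unadjusted p under 0.05), thinning 4 and 0, and depth quartiles called 11 higher. Without the filter 1 gene was lower. For PT less lung (63 and 9) DESeq2 called 15 and 1, thinning 11 and 0, and depth quartiles 30 and 3. With both mice kept, those of the 299 and 193 genes that were tested held their signs in each setting but the thinned one (268 of 286 and 182 of 187). The hypoxia list's median less that of all genes was -0.26, and 0.026 with a minimum of 2000 UMIs and 0.28 thinned. Leaving out a mouse, it lay between -0.46 and -0.13. Krt14 ranged from -3.27 to 0.62, and from -5.91 to 0.21 in the rings, Hbb-bs in the rings from -0.018 to 1.52, Ngp in the hypoxic members from -0.73 to 0.82, and Car9 in PT less lung from -0.30 to 3.20. The cause was not tested. Thinned spots hold 1000 UMIs, which leaves 9857 of 18297 genes to test.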

Other observations

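Few genes of carcinoma cells and of matrix breakdown passed the test between the neutrophil-rich and the lowest spots of the PT. Of 14 carcinoma genes tested by edgeR 1 was lower, beside 1.05% of all genes, which was Plau, the urokinase that activates plasminogen. It was at 258 CPM against 306 CPM in mouse A and at 102 against 288 CPM in mouse B (log2 fold change -1.05 ± 0.29, edgeR adjusted p = 0.022). The gap was much smaller in mouse A than in mouse B, and Plau was not called within depth quartiles or quartiles of the receptor share. Of 15 protease and matrix genes Mmp9 alone was called, beside 1.63% of all genes higher. Mmp2, Mmp12 and Mmp14 had log2 fold changes of -1.50, -0.84 and -0.67 and did not pass the threshold. The carcinoma list took 0.338% of the UMIs of the neutrophil-rich spots and 0.368% of the lowest 50% in mouse A, and 0.343% and 0.502% in mouse B.

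Among interferon genes Rsad2 was at 115 CPM against 55.6 CPM in the PT of mouse A and at 39.4 against 20.2 CPM in mouse B and missed the threshold by edgeR (adjusted p = 0.072). The amino acid exchanger gene Slc7a11 had a log2 fold change of 0.90 and likewise missed it (adjusted p = 0.067).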
